A study of Mus musculus with 5 samples.

Results

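The cytochrome P450 genes of the mouse bladder urothelium were taken as all genes whose symbol is Cyp followed by a family number, subfamily letters and a gene number. This rule found 94 of the 24970 genes counted. Of these, 28 reached 10 or more counts in at least 2 of the 5 libraries and are called detected here. RNA was sequenced from dissected urothelium of 5 mice aged 10 weeks, with 1 library per mouse. The 3 knockout (KO) mice were Krt5CreERT2;Ncstnflox/flox, and the 2 wild-type (WT) mice were C57Bl/6. In the KO mice an inducible Cre recombinase is expressed from the promoter of Krt5, a keratin gene of basal cells, and acts on floxed alleles of Ncstn. Ncstn encodes Nicastrin, a subunit of the gamma-secretase that cuts Notch receptors to release their signalling domain. The labels state no time or agent of Cre induction, and the KO mice are labelled by genotype in place of a strain, so strain background, Cre and loss of Ncstn cannot be told apart.

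Cytochromes P450 are heme enzymes that insert an oxygen atom into their substrates, with electrons passed on by P450 oxidoreductase in the endoplasmic reticulum or by ferredoxin in mitochondria. Families numbered low, Cyp1 to Cyp3, oxidise drugs, pollutants and other foreign compounds, Cyp4 enzymes hydroxylate fatty acids and eicosanoids, and most of the remaining families act on sterols, bile acids, steroids, vitamin D or retinoic acid. In the bladder, where urine concentrates foreign compounds and their metabolites, P450 enzymes are known for activating aromatic amines and polycyclic hydrocarbons within the lining itself.

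Gene counts came to 27188499, 16872894 and 12608836 in KO 1, KO 2 and KO 3 and to 19384171 and 13936790 in WT 1 and WT 2. Levels are given as CPM, counts scaled to a common library size, and differences as log2 fold changes of KO over WT. These come from edgeR (quasi-likelihood test), with p adjusted by Benjamini-Hochberg over 14779 tested genes and a threshold of 0.05. Ncstn itself stood at 114, 117 and 123 CPM in KO and at 144 and 130 CPM in WT urothelium. All KO libraries lay below both WT libraries, but with a log2 fold change of -0.21 Ncstn missed the threshold (edgeR adjusted p = 0.133), and a count over the whole gene does not check a deletion of its floxed part. For comparison with the marker counts below, 9.64% of all tested genes passed the threshold as higher in KO and 10.0% as lower. Of 8 umbrella cell markers, which include the uroplakins, 7 were higher in KO. The 8 summed to 14181 to 15893 CPM in KO and 9188 to 10065 CPM in WT. Of 7 tested basal cell markers 3 were higher, with Krt17 near 0. All 8 listed summed to 3363 to 5841 CPM in KO and 3412 to 4208 CPM in WT. Most of that sum came from Krt5 and Krt15, which were not called. Of 10 fibroblast markers 9 were lower. The 10 summed to 8507 to 10201 CPM in KO and 14529 to 16525 CPM in WT, so the dissected tissue held stromal RNA. Of 10 endothelial markers 5 were lower, and the 10 summed to 445 to 541 CPM in KO and 608 to 644 CPM in WT. Of 8 smooth muscle markers 1 was lower (sums of 456 to 583 CPM in KO and 484 to 597 CPM in WT). Of 9 macrophage markers 1 was higher and 1 lower (sums of 208 to 330 CPM in KO and 293 to 319 CPM in WT). Of the 8 adipocyte markers 3 were tested and none was called, with Adipoq at 1 count over all libraries. The 8 summed to 461 to 616 CPM in KO and 484 to 558 CPM in WT. In bulk tissue of this kind, fewer cells of a type and less RNA per cell cannot be told apart.

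The P450 set of this tissue was narrow, and both directions of change were represented in it. Of the 66 genes not detected, 27 had no count in any library, 32 had 1 to 9 counts over all 5 libraries and 7 had 10 or more. The Cyp2 family, the largest with 49 genes, had 9 detected and 21 without a count. Its Cyp2c subfamily, large in rodent liver, had 1 of 15 genes detected and 11 without a count, and no gene was detected among 4 of Cyp2a and 5 of Cyp2b. The Cyp4 family had 8 of 17 genes detected, of which 6 belonged to Cyp4f, whereas none of 5 Cyp4a genes was detected. Detected genes in the other families were 2 of 3 in Cyp1, 2 of 7 in Cyp3, and 1 each in Cyp7, Cyp11, Cyp20, Cyp26, Cyp27, Cyp39 and Cyp46. None was detected in Cyp8, Cyp17, Cyp19, Cyp21 or Cyp24, which hold bile acid, steroid hormone and vitamin D enzymes. Family sizes here count only symbols that fit the rule. The rule leaves out Cyp3a41a, Cyp3a41b, Cyp4a12a, Cyp4a12b and Cyp4a30b, of which only Cyp4a12b had counts, 3 in KO 1. At these depths a gene without detected counts may still be expressed at a low level or in few cells.

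Just inside the detection limit stood Cyp2t4, with 12, 12 and 5 counts in KO and 30 and 13 counts in WT. Just outside it stood genes that reached 10 counts in 1 library. Among them, Cyp2u1 had 8, 5 and 9 counts in KO and 18 and 8 counts in WT, and Cyp2d12 had 9, 7 and 6 counts in KO and 15 and 8 counts in WT. Cyp4f40 had 18, 9 and 2 counts in KO and 7 and 9 counts in WT. Cyp2b13, of the phenobarbital-inducible Cyp2b subfamily, had 0 counts in all KO libraries and 8 and 14 counts in WT libraries. A floor of 3 counts over the pooled KO libraries allows 0.0535 CPM, and the pooled WT level of 0.657 CPM was 12.3-fold above that floor. This ratio takes the WT level, from 22 counts, as exact and leaves out the spread between mice. The test did not cover Cyp2b13, because it missed the count filter, and 27.3% of its 50-base stretches also occur in other annotated genes, more of them in Gm45225 than in any other.

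Of the 94 genes, 30 passed the count filter and were tested, the 28 detected ones together with Cyp2u1 and Cyp4f40. Of these, 4 rose and 4 fell in KO urothelium, so 8 of 30 (26.7%) were called, where 19.7% of all tested genes were called. The share called higher over all genes was 9.64% and the share called lower was 10.0%. Levels did not overlap between genotypes for 15 of the 30, with 6 higher and 9 lower in every KO library, where 51.0% of all tested genes did not overlap. KO libraries were all above WT in 25.9% and all below it in 25.1% of all tested genes. Without WT 1 only 1 P450 gene was called higher and without WT 2 there were 2, while 4 to 5 were called lower whichever library was left out. The median log2 fold change was -0.10 over the 30 and 0.01 over all genes. As a count, then, the P450 genes stood near the background. The sizes spread widely, from -4.28 for Cyp2e1 to 0.80 for Cyp3a13, which itself did not pass. In the ranking of all 14779 genes by p, Cyp2f2 was 4 and Cyp2e1 was 16, and 6.13% of all genes were both called and more than 2-fold changed, as were 3 of the 30 P450 genes. All 3 of these, Cyp2f2, Cyp2e1 and Cyp4f13, were lower in KO and none was higher, where 4.07% of all genes were more than 2-fold lower and 2.06% more than 2-fold higher.

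**Figure D1:**
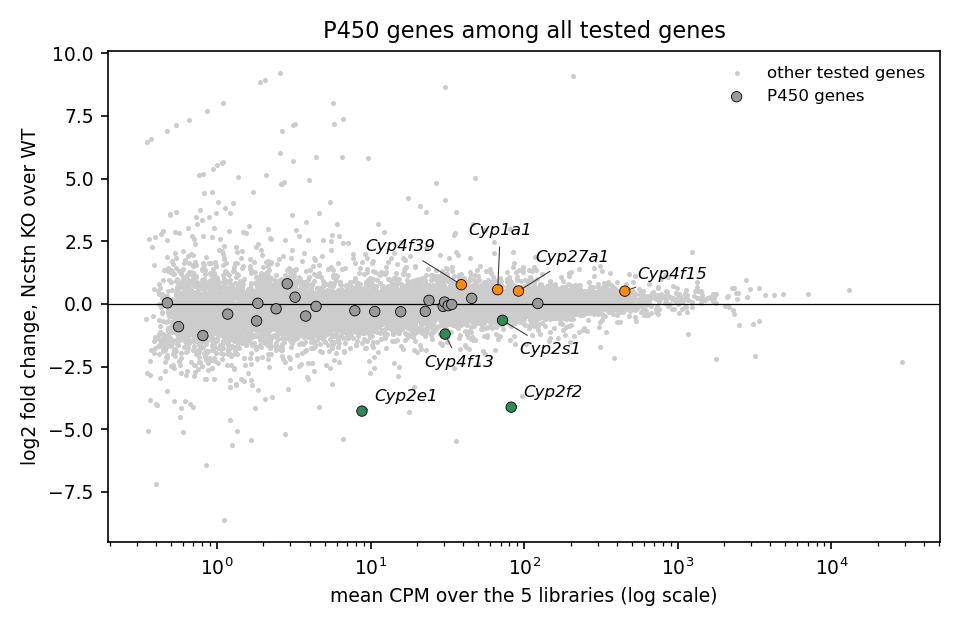
Log2 fold change of KO over WT (y axis) against mean CPM over the 5 libraries (x axis, log scale) for all tested genes (small grey points) and the 30 tested P450 genes (large points; orange called higher, green called lower, grey not called). Cyp2f2 and Cyp2e1 lie at -4.12 and -4.28, apart from the other P450 genes.

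**Figure D2:**
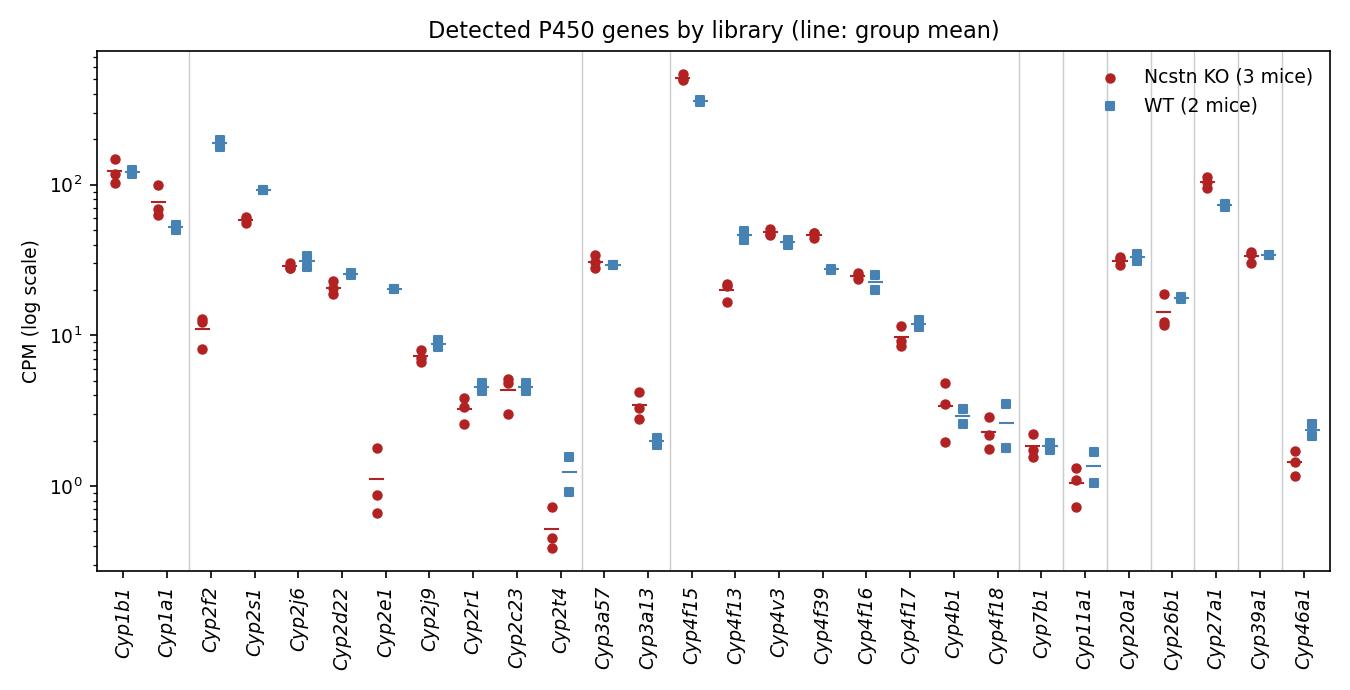
CPM (log scale) of the 28 detected P450 genes in each library, grouped by family, with KO libraries as red circles and WT libraries as blue squares and short lines at the group means. Cyp2f2 and Cyp2e1 show the widest gaps between genotypes, and Cyp4f15 has the highest CPM in both.

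The promoters of 4 genes are shown because these genes carry changes described here. Cyp2f2 and Cyp2e1 fell most. Cyp4f13 fell on the same stretch of chromosome 17 as its relatives Cyp4f39 and Cyp4f15, which rose. Cyp1a1 is the best known target of the aryl hydrocarbon receptor. Each line holds the 250 bases before the RefSeq start site (GRCm38.p6), read in the direction of the gene. Capitals mark the letters GCGTG, a core bound by the aryl hydrocarbon receptor with its partner Arnt, and TGGGAA, a core bound by Rbpj, the DNA-binding partner of Notch, on either strand.
Cyp2f2 (chr7:27119705-27119954, plus strand): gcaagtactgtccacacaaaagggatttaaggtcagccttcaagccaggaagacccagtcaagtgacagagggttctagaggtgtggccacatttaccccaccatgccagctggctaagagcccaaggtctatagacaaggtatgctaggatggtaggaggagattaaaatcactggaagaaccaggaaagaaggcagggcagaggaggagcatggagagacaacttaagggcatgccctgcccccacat
Cyp2e1 (chr7:140763569-140763818, plus strand): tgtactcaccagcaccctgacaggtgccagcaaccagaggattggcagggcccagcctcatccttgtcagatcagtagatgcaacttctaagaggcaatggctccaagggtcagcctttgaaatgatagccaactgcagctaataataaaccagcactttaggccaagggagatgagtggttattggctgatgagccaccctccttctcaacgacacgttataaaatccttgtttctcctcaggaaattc
Cyp4f13 (chr17:32947362-32947611, minus strand): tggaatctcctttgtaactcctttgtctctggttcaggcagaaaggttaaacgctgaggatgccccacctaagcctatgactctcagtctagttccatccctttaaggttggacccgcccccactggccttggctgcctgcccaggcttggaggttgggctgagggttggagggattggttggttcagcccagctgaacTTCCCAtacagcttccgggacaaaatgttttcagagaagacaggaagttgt
Cyp1a1 (chr9:57697363-57697612, plus strand): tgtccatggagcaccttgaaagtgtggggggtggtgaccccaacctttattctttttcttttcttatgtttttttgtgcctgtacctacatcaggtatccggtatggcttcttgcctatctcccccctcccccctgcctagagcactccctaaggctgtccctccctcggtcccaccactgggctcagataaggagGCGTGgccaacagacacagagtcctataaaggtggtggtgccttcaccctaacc
In the full 300-base window, which adds 50 bases after the start, Cyp2f2 and Cyp2e1 held neither core. Cyp1a1 held GCGTG 54 bases before its start, and Cyp4f13 held TGGGAA on the opposite strand, read as TTCCCA above, 51 bases before its start. The match in Cyp4f13 and the match in Cyp1a1 are descriptions of the letters, and these cores are common. GCGTG (or CACGC) was present in 32.4% of 32851 RefSeq promoter windows and TGGGAA (or TTCCCA) in 25.6%. Among the windows of the 8 called P450 genes, 2 held GCGTG (Cyp1a1 and Cyp4f39) and 2 held TGGGAA (Cyp4f13 and Cyp4f15). For 24 windows of 23 detected P450 genes the shares were 37.5% and 33.3%.

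Among the enzymes of foreign compounds, Cyp2f2 fell most by p. It is the enzyme that activates naphthalene in the club cells of the mouse lung, and lies on chromosome 7 from 27119909 to 27133660 on the plus strand (GRCm38). Its level was 8.17, 12.2 and 12.8 CPM in KO libraries and 179 and 199 CPM in WT libraries. All KO values were far below both WT values, a 17.4-fold lower level (log2 fold change -4.12 ± 0.16 SE, edgeR adjusted p = 7.44e-07). Cyp2f2 supplied 0.663%, 0.958% and 1.09% of all P450 CPM in KO libraries and 14.5% and 15.3% in WT libraries. Per kilobase of exon, a scale on which genes can be compared, it averaged 5.47 CPM in KO and 93.2 CPM in WT, where only Cyp4f15 was higher among the P450 genes. Its exons overlap an antisense gene, Gm15883, that the files do not list, and no source used here gives the strand setting of the counts.

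Cyp2e1, which oxidises ethanol and acetone and activates nitrosamines, fell by a similar factor at a lower level. It lies on chromosome 7 from 140763739 to 140774987, far from Cyp2f2. It had 0.866, 0.662 and 1.79 CPM in KO libraries and 20.4 and 20.1 CPM in WT libraries, from 23, 11 and 23 counts and from 390 and 289 counts. No KO library came near either WT library (19.4-fold lower, log2 fold change -4.28 ± 0.27, edgeR adjusted p = 1.77e-05). The fibroblast and endothelial marker sums moved the same way, with WT sums above all KO sums, and the marker sum of hepatocytes, the cells best known for Cyp2e1, moved the other way, at 59.4 to 88.8 CPM in KO and 24.0 to 24.1 CPM in WT. Nearly all of that hepatocyte sum was Ttr, while Apoc3, Fgg and Tat were at 0 and Alb had 2 counts over all libraries. The part of these cell types in the falls of Cyp2f2, Cyp2e1, Cyp2s1 and Cyp4f13 was not tested.

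Cyp2s1, an epithelial P450 that responds to the aryl hydrocarbon receptor, fell more modestly. It measured 55.4, 59.4 and 61.3 CPM in KO and 92.6 and 92.1 CPM in WT (1.58-fold lower, log2 fold change -0.66 ± 0.09, edgeR adjusted p = 0.00129). Every KO library was below both WT libraries. An antisense gene, Gm26707, overlaps its exons and is not listed in the files.

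None of the other 7 tested Cyp2 genes passed. With all libraries the 10 had log2 fold changes below 0, where the median over all tested genes was 0.01. Some lay within their SE of 0, such as Cyp2c23 (-0.10 ± 0.27) and Cyp2j6 (-0.10 ± 0.12). Cyp2c23 reached 0.13 without KO 1 and Cyp2j6 0.01 without WT 2. In 7 of the 10 every KO library lay below both WT libraries, as in 25.1% of all tested genes. Cyp2d22, of a subfamily known for drug oxidation, stood at 18.9, 22.8 and 20.6 CPM in KO and 25.8 and 25.2 CPM in WT (log2 fold change -0.30, edgeR adjusted p = 0.108). The log2 fold change was -0.49 for Cyp2r1, the microsomal vitamin D hydroxylase (edgeR adjusted p = 0.190), and -1.26 for Cyp2t4, which overlaps Egln2 on the opposite strand (edgeR adjusted p = 0.0747). Cyp2j6 and Cyp2j9 belong to a subfamily of fatty acid epoxygenases. Cyp2j6 measured 30.3, 27.9 and 28.1 CPM in KO and 28.3 and 33.7 CPM in WT, with overlapping groups (log2 fold change -0.10), and Cyp2j9 had a log2 fold change of -0.27. The kidney epoxygenase Cyp2c23 had a log2 fold change of -0.10 and Cyp2u1 one of -0.91 at very low counts.

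The Cyp2 family sum was lower in KO. It came to 130, 139 and 142 CPM in KO and to 368 and 392 CPM in WT, a ratio of 0.361, with no overlap between genotypes. Without Cyp2f2 the sums were 122, 127 and 129 CPM in KO and 189 and 193 CPM in WT, and without Cyp2f2 and Cyp2e1 they were 121, 127 and 127 CPM in KO and 168 and 173 CPM in WT. All KO sums stayed below both WT sums in each case. Cyp2s1 had the highest CPM among the genes left.

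**Figure D3:**
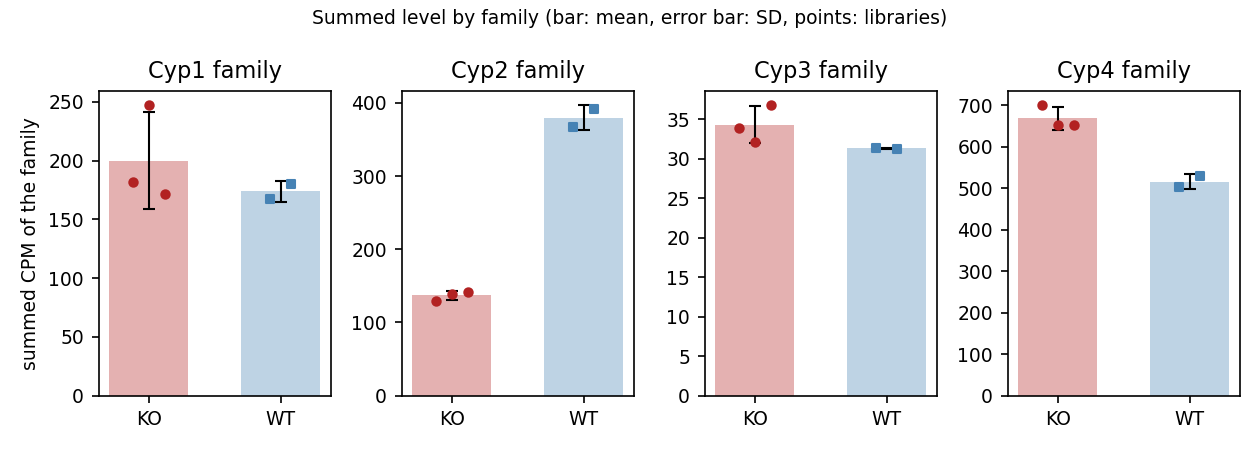
Summed CPM (y axis, from 0, with a separate scale in each panel) of the Cyp1, Cyp2, Cyp3 and Cyp4 families in KO (left) and WT (right), with bars at the mean, error bars of 1 SD (n = 3 KO, n = 2 WT) and points for libraries. The Cyp2 sums are lower and the Cyp4 sums higher in all KO libraries, and the Cyp1 sums overlap.

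Cyp1 enzymes oxidise polycyclic hydrocarbons and are induced through the aryl hydrocarbon receptor. Cyp1a1 was measured at 63.4, 98.9 and 69.1 CPM in KO and at 49.7 and 54.3 CPM in WT. KO 2 was the highest and no KO library overlapped WT, giving a 1.48-fold rise (log2 fold change 0.57 ± 0.17, edgeR adjusted p = 0.0434). This call was close to the threshold and was lost without KO 2 (adjusted p = 0.0925), without WT 1 (0.271) and without WT 2 (0.133), as well as in 3 other settings. Of its 50-base stretches, 3.55% also occur in other annotated genes, more of them in Cyp1a2, which was not detected, than in any other. Cyp1b1, which also acts on oestrogens, measured 118, 148 and 102 CPM in KO and 118 and 125 CPM in WT, with WT inside the range of KO (log2 fold change 0.02, edgeR adjusted p = 0.951). Cyp1 sums were 182, 247 and 171 CPM in KO and 168 and 180 CPM in WT, and overlapped.

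The Cyp3a subfamily, the main drug oxidisers of the liver, gave 2 detected genes and no call. Cyp3a57 measured 30.6, 27.9 and 34.0 CPM in KO and 29.4 and 29.2 CPM in WT, with WT inside the KO range. Its log2 fold change was 0.07 ± 0.12 (SE), and 8.88% of its 50-base stretches occur in other annotated genes, more of them in Cyp3a59 than in any other. Cyp3a13 stood at 3.31, 4.21 and 2.80 CPM in KO and 1.88 and 2.09 CPM in WT, above WT in every KO library but short of the threshold (log2 fold change 0.80, edgeR adjusted p = 0.0757). Without KO 3 it passed (0.89, edgeR adjusted p = 0.0325).

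Cyp4 enzymes hydroxylate the ends of fatty acid chains, and this family held the most abundant P450 transcript of the tissue, Cyp4f15. Per kilobase of exon Cyp4f15 averaged 225 CPM in KO and 158 CPM in WT. It measured 539, 494 and 504 CPM in KO and 356 and 364 CPM in WT, and every KO library was above both WT libraries. The rise was 1.42-fold (log2 fold change 0.51 ± 0.10, edgeR adjusted p = 0.00723) and missed the threshold without WT 1 (adjusted p = 0.0617). Its share of all P450 CPM was 43.8%, 38.8% and 42.8% in KO against 28.9% and 28.1% in WT. The umbrella cell marker sum was also higher in all KO libraries, as given above, and its part in the rises of Cyp4f15, Cyp4f39, Cyp27a1 and Cyp1a1 was not tested.

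Cyp4f39, the mouse counterpart of the human gene CYP4F22 whose product makes very long hydroxylated fatty acids for the skin barrier, rose 1.70-fold. Its level was 47.4, 48.1 and 44.0 CPM in KO and 27.2 and 27.5 CPM in WT. The genotypes were well separated (log2 fold change 0.77 ± 0.10, edgeR adjusted p = 0.00106). Cyp4f13 went the opposite way. It measured 22.0, 21.2 and 16.6 CPM in KO and 43.2 and 49.4 CPM in WT, again without overlap, which is 2.31-fold lower (log2 fold change -1.21 ± 0.13, edgeR adjusted p = 0.000419). Of the 50-base stretches of Cyp4f13, 2.70% occur in any other annotated gene, and of those of Cyp4f15, 2.45%. For Cyp4f16 the part shared with other annotated genes together was 26.5%, more of it with Cyp4f37 than with any other, so its level is uncertain.

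The Cyp4f genes on chromosome 17 lie together within 494.7 kb, from 32452723 to 32947402 (GRCm38). Cyp4f39 is at the start, on the plus strand, and Cyp4f13 at the end, on the minus strand. Of 8 genes there, 6 were tested, and 2 of them were higher and 1 lower in KO. For this count and the neighbours below, 9.64% of all tested genes were called higher and 10.0% lower. Between the outer genes, Cyp4f17 had a log2 fold change of -0.30, Cyp4f16 one of 0.14 and Cyp4f40 one of 0.04, and Cyp4f15 lies 241.8 kb from the start. The nearest tested genes on both sides of 8 called P450 genes were looked up after the values of these were seen. Beside Cyp4f13, the zinc finger gene Zfp870 was lower, at -1.87 on the log2 scale (edgeR adjusted p = 0.000281). On its other side, the pseudogene Cyp4f41-ps, which the symbol rule leaves out, had 2, 3 and 0 counts in KO and 22 and 24 counts in WT, and passed the count filter through its WT libraries alone. Both nearest tested neighbours of Cyp2e1 were lower in KO, Zfp941 at -1.21 (edgeR adjusted p = 0.0227) and Cd163l1, 532.6 kb away, at -1.74 (edgeR adjusted p = 0.00653). Beside Cyp1a1, Csk was higher (0.44, edgeR adjusted p = 0.00895) and Edc3 was not called, and beside Cyp27a1 neither Ttll4 nor Prkag3 was called. Axl beside Cyp2s1 (-0.29, edgeR adjusted p = 0.144), Zfp871 beside Cyp4f15 (-0.42, edgeR adjusted p = 0.0541) and Rasal3 beside Cyp4f39 (-0.17, edgeR adjusted p = 0.791) did not pass. The remaining neighbours of the called genes are P450 genes themselves, among them Cyp2f2 and Cyp2s1, which neighbour each other at 1303 kb.

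**Figure D4:**
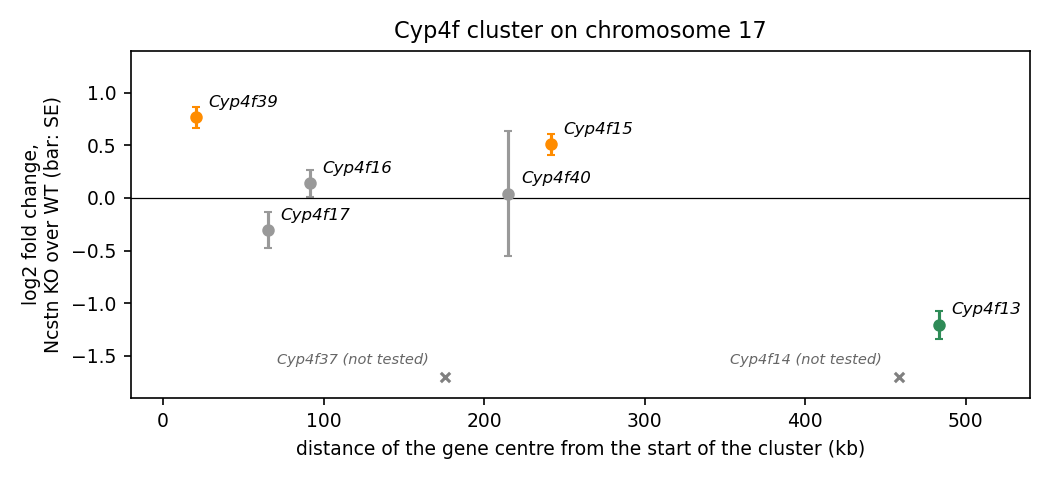
Log2 fold change of KO over WT (y axis, bars are SE) of the Cyp4f genes against the distance of the gene centre from the start of the cluster on chromosome 17 in kb (x axis). Orange genes were called higher, green lower and grey not called, and crosses at the foot mark the untested Cyp4f37 and Cyp4f14. Cyp4f39 and Cyp4f15 are above 0 and Cyp4f13, near the far end, is at -1.21.

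Other Cyp4 genes did not pass. Cyp4v3, the counterpart of the human retinal fatty acid hydroxylase gene CYP4V2, measured 50.6, 46.5 and 47.3 CPM in KO and 39.7 and 43.0 CPM in WT, above WT in every KO library (log2 fold change 0.22, edgeR adjusted p = 0.145). It shares exons with Gm45753 on the same strand. Cyp4b1, known for activating aromatic amines, stood at 4.82, 3.49 and 1.95 CPM in KO and 3.24 and 2.58 CPM in WT, and Cyp4f18, which hydroxylates leukotriene B4 in neutrophils, had a log2 fold change of -0.20. The Cyp4 sums were 700, 652 and 652 CPM in KO and 503 and 529 CPM in WT. All KO sums were higher, a ratio of 1.30. Without Cyp4f15 the ratio was 1.00, so the higher family sum rested on that gene.

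Of the 7 tested genes in the remaining families, most of them for sterol or retinoid enzymes, 1 passed. Cyp27a1, a mitochondrial sterol hydroxylase that starts the acidic route of bile acid synthesis, measured 104, 113 and 95.1 CPM in KO and 74.5 and 71.4 CPM in WT. All KO libraries were above WT (1.43-fold higher, log2 fold change 0.51 ± 0.10, edgeR adjusted p = 0.00757). The adjusted p was 0.0590 without WT 1 and 0.0594 without WT 2. Cyp39a1, an oxysterol hydroxylase, measured 34.5, 35.8 and 30.0 CPM in KO and 34.2 and 33.9 CPM in WT (log2 fold change -0.02 ± 0.11), and the orphan enzyme gene Cyp20a1 measured 29.3, 31.9 and 32.9 CPM in KO and 31.0 and 34.8 CPM in WT (log2 fold change -0.07 ± 0.11). Both overlapped between genotypes. Cyp26b1, which clears retinoic acid, stood at 11.8, 18.9 and 12.2 CPM in KO and 17.5 and 18.0 CPM in WT, with KO 2 above both WT libraries (log2 fold change -0.31, edgeR adjusted p = 0.291). Without KO 2 it was lower (-0.58, edgeR adjusted p = 0.0337). Cyp46a1, which hydroxylates cholesterol in neurons, had 1.69, 1.44 and 1.17 CPM in KO and 2.14 and 2.58 CPM in WT (log2 fold change -0.68, edgeR adjusted p = 0.151). The log2 fold change was 0.02 for Cyp7b1, which hydroxylates oxysterols, and -0.41 for Cyp11a1, the first enzyme of steroid hormone synthesis. Markers of steroid-making and male accessory gland cells summed to 6.78 to 7.94 CPM in KO and 6.76 to 7.83 CPM in WT, nearly all of it Star, with Svs4, Svs5 and Pbsn at 0.

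**Figure D5:**
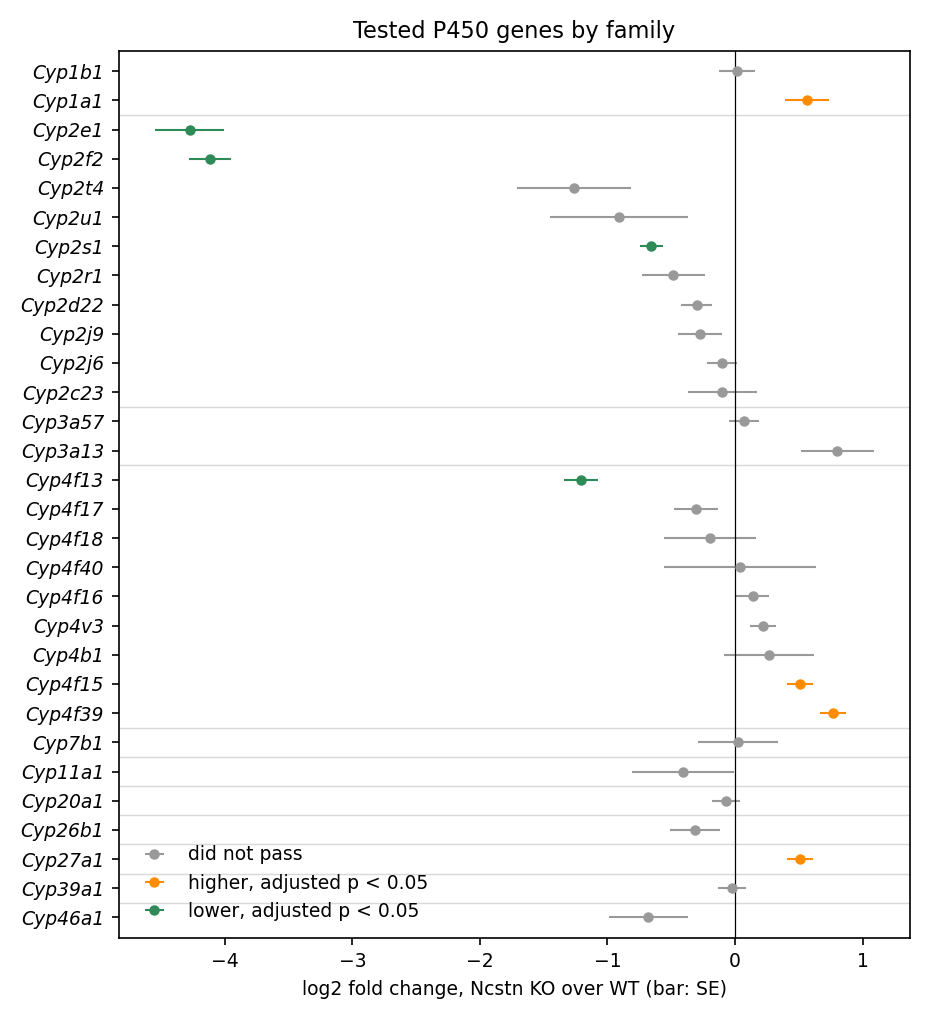
Log2 fold change of KO over WT (x axis, bars are SE) of the 30 tested P450 genes, ordered by family and, within a family, from lowest to highest. With all libraries, the 10 Cyp2 genes lie left of 0 (Cyp2c23 was at 0.13 without KO 1 and Cyp2j6 at 0.01 without WT 2), Cyp4f39 and Cyp4f15 lie right of it, and most of the remaining genes lie close to it.

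Over all 94 genes the total overlapped between genotypes. P450 CPM summed to 1231, 1275 and 1177 in KO and to 1233 and 1296 in WT. Without Cyp2f2 and Cyp2e1 the sums were 1222, 1262 and 1162 CPM in KO and 1034 and 1078 CPM in WT, higher in every KO library. These 2 genes fell most, so leaving them out moves the sums towards KO by construction. Of the sums left, Cyp4f15 alone held 539, 494 and 504 CPM in KO and 356 and 364 CPM in WT. A general rise of the remaining genes therefore cannot be read from them. In its makeup, Cyp2 supplied 10.6%, 10.9% and 12.1% of P450 CPM in KO and 29.8% and 30.2% in WT, and Cyp4 supplied 56.9%, 51.1% and 55.4% in KO and 40.8% and 40.8% in WT.

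Partners of the P450 enzymes were followed in lists. These were chosen with earlier results of these data known, so a share called above that of all genes adds no support. Of 11 genes of electron transfer, 2 rose and none fell (18.2% called, against 19.7% over all tested genes, with a median log2 fold change of 0.09). Por, the oxidoreductase that serves all microsomal P450 enzymes, measured 334, 377 and 365 CPM in KO and 255 and 284 CPM in WT (log2 fold change 0.41, edgeR adjusted p = 0.0222). Pgrmc1, a heme protein that binds P450 enzymes, measured 811, 705 and 746 CPM in KO and 555 and 552 CPM in WT (log2 fold change 0.45, edgeR adjusted p = 0.0187). Both were higher in every KO library, and each call was lost in 3 of 5 fits that left out 1 library. For Por these were the fits without KO 2 (adjusted p = 0.0923), WT 1 (0.177) and WT 2 (0.0516), and for Pgrmc1 those without KO 1 (0.0715), WT 1 (0.0973) and WT 2 (0.0776).

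Of 17 tested receptors and partners that regulate P450 genes, 3 fell and none rose (17.6% called, against 19.7% over all tested genes, median -0.15). These were the receptor repressor gene Ahrr (-0.73, edgeR adjusted p = 0.0120), the vitamin D receptor gene Vdr (-0.58, edgeR adjusted p = 0.0382) and the nuclear receptor gene Nr5a2 (-1.77, edgeR adjusted p = 0.00918). Each of the 3 calls was lost without WT 2, with adjusted p of 0.0829 for Ahrr, 0.131 for Vdr and 0.107 for Nr5a2. Ahrr was also lost without WT 1 (0.0696), as was Vdr (0.191), and Vdr without KO 1 (0.135). With DESeq2 the adjusted p of Vdr was 0.0503. Ahr, the aryl hydrocarbon receptor gene, measured 131, 108 and 121 CPM in KO and 159 and 141 CPM in WT, below WT in every KO library without passing (-0.32, edgeR adjusted p = 0.0636). Its partner Arnt measured 81.4, 81.4 and 92.6 CPM in KO and 108 and 98.9 CPM in WT (-0.28, edgeR adjusted p = 0.0710). Both were close to the threshold and passed it in other settings, such as upper-quartile scaling (adjusted p = 0.0428 for Ahr and 0.0468 for Arnt). The xenobiotic receptors Nr1i2 and Nr1i3 were not tested because of low counts. Among 6 target genes of the aryl hydrocarbon receptor outside the P450 family, 3 fell and none rose (median log2 fold change -0.34), where 10.0% of all tested genes were called lower and 9.64% higher. They were Ugt1a6a (-0.61, edgeR adjusted p = 0.00555), Ugt1a6b (-0.86, edgeR adjusted p = 0.00181), both glucuronidating enzymes of 1 locus with shared exons, and Ahrr. Ugt1a6a was lost without WT 1 (0.0578). Of the same locus, Ugt1a1 was higher (0.80, edgeR adjusted p = 0.0147), a call lost without WT 1 (0.0588) and without WT 2 (0.117), and Ugt1a7c did not pass (-0.11, edgeR adjusted p = 0.433), and with shared exons the split of counts among these genes is uncertain. Cyp1a1 was thus higher and Cyp2s1, Ahrr, Ugt1a6a and Ugt1a6b were lower in KO, while Nqo1, Tiparp and Aldh3a1 did not pass (-0.07, 0.07 and 0.21).

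Heme genes had 3 of 13 higher and 1 lower (30.8% called, against 19.7% over all tested genes, median 0.27). Alad, an early enzyme of heme synthesis, measured 110, 117 and 115 CPM in KO and 39.4 and 43.4 CPM in WT, with no overlap (1.46, edgeR adjusted p = 2.08e-05). Cpox, a later enzyme, rose (0.56, edgeR adjusted p = 0.00521), as did Hmox1, which breaks heme down (0.67, edgeR adjusted p = 0.00465), whereas Ppox fell (-0.30, edgeR adjusted p = 0.0364). Alas1, which sets the rate of the pathway, measured 55.3, 65.6 and 60.3 CPM in KO and 60.1 and 56.9 CPM in WT (0.04, edgeR adjusted p = 0.806). Without WT 1, Cpox (0.0545) and Hmox1 (0.0740) were lost, and Ppox was lost in 4 of 5 fits that left out 1 library, without KO 1 (0.0956), KO 2 (0.105), WT 1 (0.121) and WT 2 (0.105).

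Among 13 tested genes that make or process eicosanoids, the substrates and products of Cyp4f and Cyp2j enzymes, 2 rose and 2 fell (30.8% called, against 19.7% over all tested genes, median 0.24). Of the 13, Ptgds passed the count filter through KO libraries alone, with 47, 11 and 0 counts in KO and 3 and 1 counts in WT. It was not called, and its value adds no support to the median. Ptgs1, a cyclooxygenase gene, measured 236, 250 and 213 CPM in KO and 137 and 133 CPM in WT (0.79, edgeR adjusted p = 0.000863). Its inducible relative Ptgs2 rose at a low level (1.34, edgeR adjusted p = 0.0170), and the prostaglandin D synthase gene Hpgds (-1.35, edgeR adjusted p = 0.0152) and the epoxide hydrolase gene Ephx3 (-1.29, edgeR adjusted p = 0.00995) fell. Leaving out 1 library at a time ended the call of Ptgs2 without KO 1 (0.0578), WT 1 (0.174) and WT 2 (0.0699), of Hpgds without WT 1 (0.165) and WT 2 (0.0663), and of Ephx3 without WT 1 (0.0588) and WT 2 (0.0938). Among P450 enzymes that the symbol rule leaves out, 3 were listed and none of these passed in edgeR, with 2 at an unadjusted p under 0.05. Of the 3, 1 passed with DESeq2 and 1 with limma-voom. Cyp51, of cholesterol synthesis, measured 73.3, 69.2 and 83.9 CPM in KO and 65.2 and 60.9 CPM in WT (0.26, edgeR adjusted p = 0.118). Ptgis, the prostacyclin synthase gene, measured 40.2, 47.3 and 54.1 CPM in KO and 62.9 and 59.9 CPM in WT (-0.39, edgeR adjusted p = 0.0553), and Tbxas1 had a log2 fold change of -0.22.

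Of 26 tested enzymes of drug metabolism outside the P450 genes, 6 rose and 8 fell (53.8% called, against 19.7% over all tested genes, median -0.04). This list too was chosen with earlier results of these data known, so its share is a description only. Without WT 1 there were 5 calls, without WT 2 7 and without KO 2 9. Among the 26, 2 passed the count filter through KO libraries alone and 2 through WT libraries alone, so their calls add no support to these counts. Those passing through WT were the carboxylesterase gene Ces1d, with 1, 2 and 0 counts in KO and 56 and 45 counts in WT, and the sulfotransferase gene Sult2b1, with 2, 2 and 1 counts in KO and 28 and 23 counts in WT. The aldehyde oxidase genes Aox3 (-1.12, edgeR adjusted p = 0.000465) and Aox1 (-0.74, edgeR adjusted p = 0.00369) fell, and the sulfotransferase gene Sult1a1 rose (1.16, edgeR adjusted p = 0.00249). The calls of Aox3, Aox1 and Sult1a1 held without any single library. Of 8 tested genes of retinoid supply and binding, 3 fell and none rose (37.5% called, against 19.7% over all tested genes, median -0.39). They were Aldh1a2, which makes retinoic acid (-0.71, edgeR adjusted p = 0.0207), Lrat, which stores retinol (-1.84, edgeR adjusted p = 0.0349), and Crabp2, which binds retinoic acid (-1.51, edgeR adjusted p = 0.0417). Counts of Crabp2 and Lrat were low. Crabp2 stood at 0.301 to 1.09 CPM in KO and 1.67 to 2.14 CPM in WT. Lrat stood at 0.120 to 0.545 CPM in KO and 0.976 to 1.46 CPM in WT. Lrat passed the count filter through its WT libraries alone, so its fall adds no support to the 3 of 8, the 37.5% or the median. All 3 were lost without WT 2, with adjusted p of 0.170 for Aldh1a2, 0.0970 for Lrat and 0.124 for Crabp2, and all 3 without KO 1 (0.0652, 0.0715 and 0.0937 in the same order). Lrat and Crabp2 were also lost without KO 2 (0.0646 and 0.0788), without WT 1 (0.326 and 0.311) and with DESeq2 (0.0795 and 0.0664).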

How the data were processed

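Bladder urothelium RNA of 3 KO and 2 WT mice was analysed from the raw gene counts that the authors deposited, 1 table per library. Per the labels' protocols, RNA was isolated with TRI-Reagent from frozen, powdered urothelium that had been cut away from the muscle layer, and libraries were built with a TruSeq kit. The submitters' processing notes name the build mm10 and the tools HTSeq 0.11.1, HISAT2 2.1.0 and DESeq2. No source used here gives the annotation or strand setting of the counts. The 5 summary entries of the counting program were left out of library sizes, and genes held 49.3% to 60.6% of all tallied reads. Because reads from near-identical stretches cannot be assigned to 1 gene, the share of a gene's 50-base stretches found in other annotated transcripts is given where it matters.

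Counts were filtered with filterByExpr (minimum total 15, minimum count 10), scaled with TMM and tested with edgeR 4.0.16 in R 4.3.3 (quasi-likelihood test, Benjamini-Hochberg over 14779 genes, threshold 0.05). CPM here means counts divided by the scaled library size, and levels per kilobase use exon lengths of GENCODE vM21 on GRCm38, which also gave positions. The common biological coefficient of variation was 0.109. Each library was counted as 1 mouse, as the design text describes. The p values set the difference between genotypes against the spread between these libraries, which the fit estimates partly from all genes together. Replicates differed by more than counting error. Chi-square per degree of freedom over genes was 36.3 between WT 1 and WT 2 and 9.26 to 19.4 between KO libraries. Between WT 2 and the KO libraries it was 40.5 to 52.4, and between WT 1 and the KO libraries 95.2 to 150.

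The members and lists were chosen with earlier results of these data known. Full values are given for each detected gene that passed and for the 12 detected genes with the highest CPM per kilobase. Undetected genes are named where 1 library reached 10 counts, and members of other lists where they passed (at most 6 by smallest p), besides Por, Ahr and Arnt. Neighbours and Cyp4f41-ps were chosen after their values were seen, as were other genes named outside this rule. Promoter windows come from RefSeq, and a protein comparison was not made. Alternatives were other scalings and filters, a robust fit, DESeq2 1.42.0, limma 3.58.1 with voom, a replicate block, and leaving out each library or the RNAs Rn45s and Malat1. The edgeR fit was tested on simulated counts.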

Additional observations from a re-analysis of the deposited data

How the results depend on the processing

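Of 120 results for the 8 called P450 genes under 15 alternatives each, 111 kept their direction and their side of the threshold, 9 lost the threshold and 0 changed sign. The calls of Cyp2f2, Cyp2e1, Cyp4f13, Cyp2s1 and Cyp4f39 held in all 15. Cyp1a1 was lost in 6 of 15, among them upper-quartile scaling (adjusted p = 0.0568), a filter at 5 CPM (0.0608) and the robust edgeR fit (0.0590). Leaving out 1 library gave 715 (without WT 1) to 3989 (without KO 3) called genes, 1 to 5 P450 genes higher, with 1 without WT 1 and 2 without WT 2, and 4 to 5 lower. In the lists it gave 0 to 2 calls for electron transfer, 0 to 6 for receptors, 1 to 4 for aryl hydrocarbon receptor targets, 1 to 6 for heme, 1 to 7 for eicosanoids, 0 to 1 for P450 enzymes outside the rule, 5 to 18 for other drug metabolism and 0 to 4 for retinoids.

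The labels do not state that replicate numbers pair the mice. Deviations of same-numbered libraries from their group means correlated at -0.0553 and 0.0516. With 2 WT libraries the WT deviations mirror each other, so these are not separate checks and cannot exclude pairing. With the replicate block 4637 genes were called, with 5 P450 genes higher, among them Cyp3a13 (0.91, adjusted p = 0.0172), and 7 receptor, 8 heme, 7 eicosanoid and 1 outside-rule calls. Receptor calls were 5 with upper-quartile scaling and 6 without a filter, heme calls 7 without a filter, and eicosanoid calls 2 and retinoid calls 1 at 5 CPM. DESeq2 gave 1 retinoid call. For P450 enzymes outside the rule, upper-quartile scaling, no filter, 5 CPM, the robust fit, DESeq2 and limma-voom each gave 1 call. Without their most abundant member, family ratios were 1.48 for Cyp1, 0.660 for Cyp2, 1.70 for Cyp3 and 1.00 for Cyp4, and 0.259 for Cyp2 per kilobase. Fewer genes or samples enter by construction in the filter and left-out settings. The same holds for the replicate block, because KO 3 is the only library with its replicate number. Its block term fits KO 3 by itself, so KO 3 adds nothing there to the difference between KO and WT. The block is thus close to the setting without KO 3, where Cyp3a13 was at 0.89. For the other settings the cause was not tested.

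Signs turned only among uncalled P450 genes. Cyp1b1 was at -0.027 with upper-quartile scaling and at -0.031 at 5 CPM, Cyp7b1 at -0.018 and Cyp4f40 at -0.0022 with upper-quartile scaling, and Cyp4f40 at -0.064 with DESeq2 and -0.091 with limma-voom. With the replicate block Cyp39a1 was at 0.044 and Cyp3a57 at -0.00066. Leaving out 1 library gave -0.15 to 0.11 for Cyp1b1, -0.27 to 0.13 for Cyp2c23, -0.23 to 0.011 for Cyp2j6, -0.088 to 0.028 for Cyp39a1, -0.015 to 0.13 for Cyp3a57, -0.086 to 0.50 for Cyp4b1, -0.028 to 0.30 for Cyp4f16, -0.63 to 0.33 for Cyp4f18, -0.36 to 0.40 for Cyp4f40 and -0.15 to 0.11 for Cyp7b1.

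The comparison rests on 2 WT mice, and 5 of the 9 losses among called P450 genes came from leaving out 1 of them, where the lone WT library is assumed to vary like the KO libraries. By chi-square per degree of freedom over genes, WT 1 and WT 2 differed more from each other than the KO libraries did among themselves. The P450 genes that lost their calls in these fits had a smaller spread in WT than in KO. SDs in KO and WT were 19.1 and 3.23 CPM for Cyp1a1 and 9.06 and 2.15 CPM for Cyp27a1. For Cyp4f15 they were 23.7 and 6.10 CPM. With 2 WT libraries the WT SDs are uncertain, and whether the assumption holds for these genes was not tested. At 12608836 to 27188499 counts per library, differences in genes with few counts were hard to detect.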
